A study of Mus musculus with 2 samples.

Results

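The genes described here encode the enzymes that make and break down prostaglandins and the receptors that sense them, in 4T1 cells grown alone or with M2 macrophages. They were taken by symbol, through GENCODE M21 names, from a fixed set of 10: Pla2g4a, Ptgs1, Ptgs2, Ptges, Ptges2, Ptges3, Ptgis, Hpgd, Ptger2 and Ptger4. All 10 were found, each as 1 row, among 51912 rows with Ensembl identifiers. The 4T1 line is a mouse mammary carcinoma line. The control group was 1 library of 4T1 cells labelled as control. The treated group was 1 library of 4T1 cells from the lower chamber of a transwell, with M2 macrophages (macrophages of the alternatively activated kind) in the upper chamber for 3 days. Whether the control cells had an empty upper chamber, and where the macrophages came from, is not stated in the labels. The title of the co-culture sample reads M2_4T2, while its treatment label and the table's column say 4T1, and the treatment label was followed.

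Prostaglandins are made from arachidonic acid, a fatty acid that phospholipases A2 free from membrane lipids. Cyclooxygenases turn it into prostaglandin H2, and a terminal synthase then makes a particular product, such as prostaglandin E2 (PGE2) or prostacyclin. PGE2 acts on the receptors EP1 to EP4 of the cell that made it or of its neighbours, and the dehydrogenase encoded by Hpgd inactivates it. In mammary tumours the pathway is best known for inducible cyclooxygenase, Ptgs2, and for the effects of PGE2 on immune cells, macrophages among them.

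Values are TPM, a relative abundance corrected for transcript length, so levels of different genes can be set side by side. With 1 library per group there is no replicate error, no test and no p-value, and every difference compares these 2 libraries only. TPM keeps no depth, so counting error is unknown. A gene counted as detected at a mean of at least 1 TPM over both libraries, which 11258 genes reached. Differences between libraries are given as a log2 ratio with 1 TPM added to each value, and 2-fold means a log2 ratio of at least 1 or at most -1. This scale understates the difference of genes at low levels. Co-culture values were also divided by the median ratio of abundant genes (the median-ratio scaling), which shifts them by 0.12 on the log2 scale. Here alone denotes the control library, and with macrophages denotes the co-culture library. Where 2 values are given without these words, the control comes first. Of 8 marker genes listed for 4T1 cells 5 were detected. The keratin genes Krt8, Krt18 and Krt7 had 548, 439 and 15.9 TPM alone and 630, 484 and 18.3 TPM with macrophages. Krt19 had 0.18 and 2.64 TPM, and Krt14 was undetected, at 0.23 and 0.32 TPM. Vim, which encodes vimentin, was the most abundant of the list, with 4590 and 4066 TPM. Epcam was listed at 0 in both libraries and Cdh1 was at 0.04 and 0.01 TPM. Of 20 macrophage markers, 18 were undetected, and those 18 summed to 0.13 TPM alone and 0.47 TPM with macrophages. Lyz2 was at 0 and 0.04 TPM, Tyrobp and Adgre1 were listed at 0 in both, and the detected markers, Cd68 and Cd14, were at 57.7 and 27.8 TPM and at 8.87 and 12.4 TPM. The whole marker list summed to 66.7 TPM alone and 40.6 TPM with macrophages.

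Of the 10 genes, 6 were detected and 4 were not. Ptges was the only member at least 2-fold higher in co-culture, and no member was 2-fold lower. The other 5 detected members, Ptgs2, Pla2g4a, Ptges2, Ptgs1 and Ptges3, were within 2-fold. Among all detected genes 4.95% were at least 2-fold higher and 2.14% were at least 2-fold lower. Of the detected members 4 were higher and 2 lower in co-culture (3 and 3 with the median-ratio scaling). Their median log2 ratio was 0.08, beside 0.17 over all detected genes, of which 64.5% were higher (55.4% with the median-ratio scaling). The members did not share a direction: log2 ratios ran from -0.51 for Ptgs2 to 1.30 for Ptges.

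**Figure D1:**
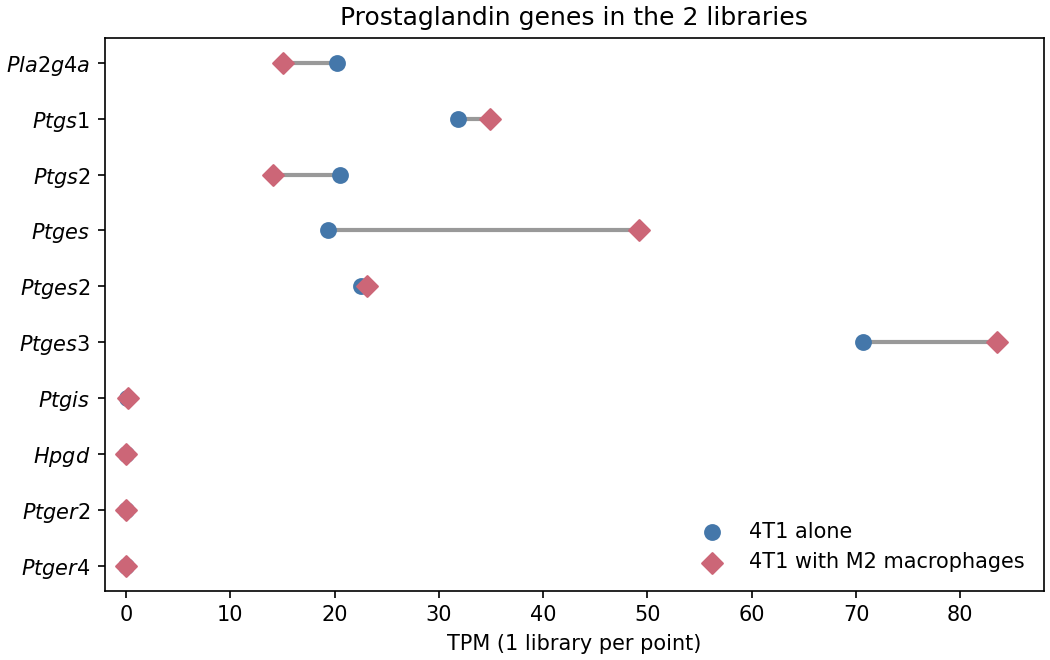
TPM of each of the 10 genes in the control library (circles) and the co-culture library (diamonds), 1 library per point, ordered by role from arachidonate release to receptors. Ptges shows the longest shift, from 19.3 to 49.2 TPM, Pla2g4a and Ptgs2 lie to the left of their control values, and Ptgis, Hpgd, Ptger2 and Ptger4 lie at or near 0.

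The first step, release of arachidonic acid, is the task of cytosolic phospholipase A2, which Pla2g4a encodes. Pla2g4a (ENSMUSG00000056220) is a protein-coding gene on the minus strand of chromosome 1 of GRCm38, from 149829618 to 149961290. It had 20.2 TPM alone and 15.1 TPM with macrophages, a log2 ratio of -0.40. The co-culture value was lower, by less than 2-fold. Its ratio lay at the 10.9th percentile of all detected genes.

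The cyclooxygenases differed from each other. Ptgs1 encodes cyclooxygenase 1, the form made constitutively in many tissues, and lies on chromosome 2 from 36230426 to 36252272 (ENSMUSG00000047250). It had 31.8 TPM alone and 34.9 TPM with macrophages, a log2 ratio of 0.13. This ratio was near the middle of all detected genes, at the 47th percentile. Ptgs2 encodes cyclooxygenase 2, the form induced by growth factors and inflammatory signals, and lies on chromosome 1 from 150100031 to 150108227 (ENSMUSG00000032487). It had 20.5 TPM alone and 14.1 TPM with macrophages, a log2 ratio of -0.51. Ptgs2 thus had the lowest ratio of the 6 detected members, at the 7.76th percentile of all detected genes, and it was not 2-fold lower. Ptgs2 and Pla2g4a, which act in sequence, lie 138.7 kb apart on chromosome 1 with their starts facing each other. Both were lower in co-culture, as were 3988 of the 11258 detected genes (5016 with the median-ratio scaling). A link between Ptgs2 and Pla2g4a was not tested. The 3 annotated genes between them are Gm19136, Gm44329 and Ptgs2os.

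The PGE synthases also differed from each other. Ptges encodes the microsomal, glutathione-dependent enzyme that is inducible and is often made together with cyclooxygenase 2. It (ENSMUSG00000050737) lies on the minus strand of chromosome 2 from 30889471 to 30929863. It had 19.3 TPM alone and 49.2 TPM with macrophages, a ratio of 2.54 between the TPM values and a log2 ratio of 1.30. Of the 6 detected members it had the lowest level in the control library and the second highest in the co-culture library. Its log2 ratio was above that of 97.9% of all detected genes, and above that of 98.7% of the 3521 genes whose mean level was within 2-fold of its own. Of those 3521 genes 3.49% were at least 2-fold higher.

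Ptges2 encodes a membrane-associated PGE synthase made constitutively, and lies on chromosome 2 from 32395896 to 32405772 (ENSMUSG00000026820). It had 22.6 TPM alone and 23.1 TPM with macrophages, a log2 ratio of 0.04 that became -0.07 with the median-ratio scaling. As deposited, its levels were the closest to each other among the 6 detected members, while Ptgs1, at 0.02, was closer with the median-ratio scaling. Ptges3 encodes p23, a co-chaperone of Hsp90 that also has PGE synthase activity in the cytosol, and lies on chromosome 10 from 128058954 to 128077272 (ENSMUSG00000071072). It was the most abundant member in both libraries, with 70.7 TPM alone and 83.5 TPM with macrophages, a log2 ratio of 0.24. A processed pseudogene, Ptges3-ps, is listed at 2.14 and 2.76 TPM, and reads shared with it could have been assigned to either row.

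The order of levels changed between the libraries. In the control the order from high to low was Ptges3, Ptgs1, Ptges2, Ptgs2, Pla2g4a and Ptges. The last 4 of these lay between 19.3 and 22.6 TPM, and with no replicate their order cannot be ranked against error. In co-culture the order was Ptges3, Ptges, Ptgs1, Ptges2, Pla2g4a and Ptgs2, from 83.5 down to 14.1 TPM.

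**Figure D2:**
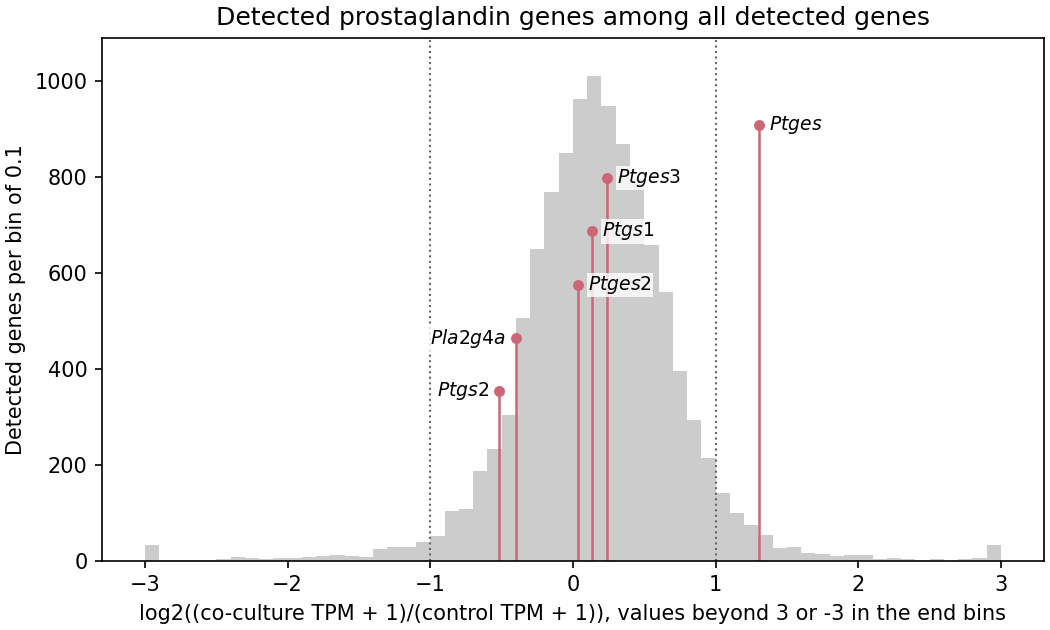
Number of detected genes (y axis) per bin of 0.1 in the log2 ratio of co-culture to control TPM (x axis, 1 TPM added), in grey, with the 6 detected prostaglandin genes as red stems whose heights carry no value. Dotted lines mark log2 ratios of -1 and 1, and Ptges, at 1.30, is the only stem beyond them.

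Ratios between genes within 1 library do not depend on how the libraries were scaled to each other. The ratio of Ptges to Ptgs2 TPM was 0.942 in the control and 3.50 in co-culture, 3.71-fold higher. The ratio of Ptges to Ptgs1 was 0.607 and 1.41. Both cyclooxygenase genes together had 52.3 TPM alone and 49.0 TPM with macrophages, of which Ptgs2 made up 39.2% and 28.7%. The 3 PGE synthase genes together had 112.6 TPM alone and 155.8 TPM with macrophages. Ptges made up 17.2% of that sum in the control and 31.6% in co-culture, while Ptges3 made up 62.8% and 53.6%. The ratio of Pla2g4a to Ptgs2 was 0.986 and 1.07, so these neighbouring genes had nearly equal levels in both libraries.

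**Figure D3:**
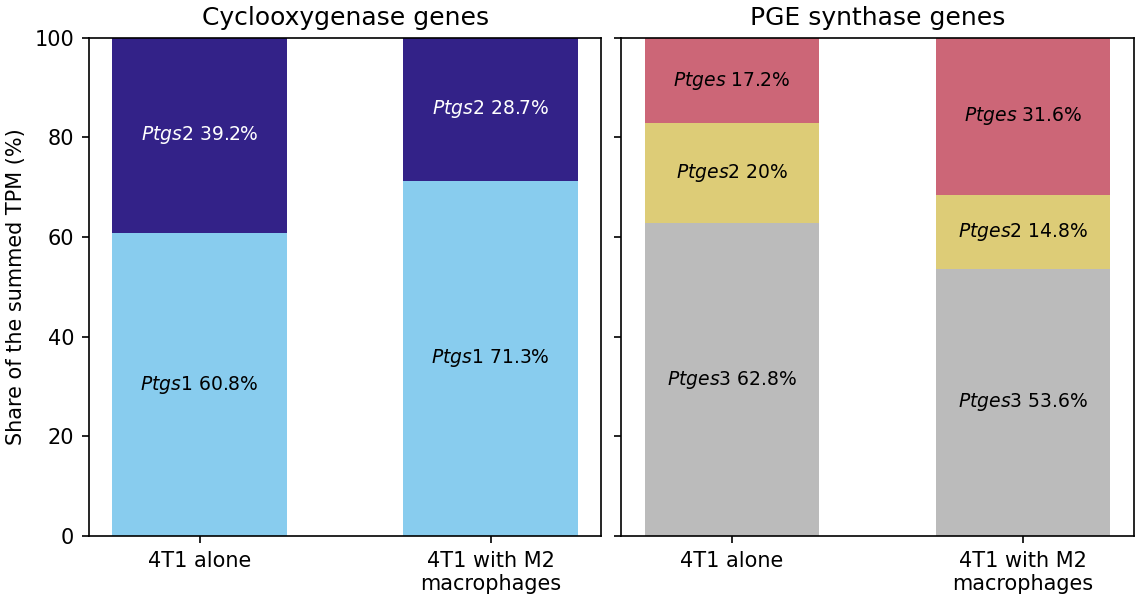
Share (%, y axis) of each cyclooxygenase gene in the summed TPM of Ptgs1 and Ptgs2 (left) and of each PGE synthase gene in the summed TPM of Ptges, Ptges2 and Ptges3 (right), in the control and co-culture libraries, 1 library per bar. The Ptgs2 share is 39.2% alone and 28.7% with macrophages, and the Ptges share is 17.2% and 31.6%.

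The promoters of Ptges and Ptgs2 are shown because these members had the highest and the lowest log2 ratio. Each line gives the 250 bases before the RefSeq start of the gene (assembly GRCm38.p6), 5′ to 3′ on the gene's own strand. Capitals mark every match, on either strand, to 10 motifs: the TATA box (TATAAA), the cAMP response element (TGACGTCA), the C/EBP core (TTNNGCAA), the GC box (GGGCGG), the EGR1 site (GCGNGGGCG), the E-box (CACGTG), the hypoxia response core (ACGTG, which lies inside the E-box), the AP-1 site (TGANTCA), the ATF4-C/EBP composite (TGATGNAA) and the NF-kB consensus. The Ptges window is chr2:30903298-30903547 on the minus strand, and the Ptgs2 window is chr1:150099781-150100030 on the plus strand. The Ptges start used by RefSeq lies inside the longer GENCODE gene span.
Ptges: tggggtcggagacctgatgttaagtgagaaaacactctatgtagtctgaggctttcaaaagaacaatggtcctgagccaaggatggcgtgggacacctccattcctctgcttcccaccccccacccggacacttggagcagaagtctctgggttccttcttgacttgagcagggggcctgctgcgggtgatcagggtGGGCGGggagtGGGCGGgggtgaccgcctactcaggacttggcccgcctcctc
Ptgs2: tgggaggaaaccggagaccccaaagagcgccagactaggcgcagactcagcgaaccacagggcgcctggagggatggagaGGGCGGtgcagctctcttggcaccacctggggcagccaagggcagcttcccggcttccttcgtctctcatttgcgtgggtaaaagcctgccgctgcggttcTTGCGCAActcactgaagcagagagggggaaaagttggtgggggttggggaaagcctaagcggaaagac

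The Ptges window held a pair of GC boxes, which began 53 and 42 bases before the start. The Ptgs2 window held 1 GC box, 170 bases before the start, and 1 C/EBP core, TTGCGCAA, 69 bases before it. Among 32817 RefSeq windows of the same length, 32.7% held a GC box and 9.57% a C/EBP core. The other 8 motifs had no match in either window, which says only that these letters are absent there. The Ptgs2 window also overlaps exons of the noncoding gene Ptgs2os, which starts at 150099963 on the minus strand and runs away from Ptgs2. Of the 10 members 9 had a RefSeq window, the exception being Ptgis. A GC box was also found in the windows of Ptges3, Hpgd and Ptger4, more than once in Ptges3 and Ptger4. The Ptges3 window also held an NF-kB match, and the Ptges2 window an E-box with the hypoxia response core inside it. The other window of Pla2g4a held a TATA box. The windows of Ptgs1 and Ptger2 and the upstream window of Pla2g4a had no match to any of the motifs. A match describes letters and not binding, which was not measured.

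The prostacyclin branch was near 0. Ptgis, which encodes prostacyclin synthase (chromosome 2 from 167191805 to 167240604), had 0.11 TPM alone and 0.16 TPM with macrophages. The gene for the breakdown enzyme, Hpgd (chromosome 8 from 56294585 to 56321043), was listed at 0 in both libraries. Hpgd encodes 15-hydroxyprostaglandin dehydrogenase, which starts the inactivation of PGE2. A value of exactly 0 in a TPM table may also be a failed estimate, and the depth behind it is unknown.

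The PGE2 receptors among the members were at or near 0. Ptger2 and Ptger4 encode EP2 and EP4, which raise cAMP through the stimulatory G protein. Ptger2 (chromosome 14 from 44988195 to 45003820) was listed at 0 in both libraries. Ptger4 (chromosome 15 from 5206661 to 5244187) was at 0.03 TPM alone and listed at 0 with macrophages. Its span overlaps that of Ttc33 on the opposite strand, and Ttc33 had 13.9 and 14.4 TPM. Over all 9 receptor genes the highest value in either library was 0.16 TPM, reached by Ptger1 in the control and Ptgir in co-culture, and their sum was 0.39 TPM alone and 0.36 TPM with macrophages.

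The wider pathway was described with 11 lists of 129 genes found in the table, of which 85 were detected. Of these 85 genes 64 were higher and 21 lower in co-culture, with a median log2 ratio of 0.25. The higher genes were 75.3% of the lists' genes and 64.5% of all detected genes. With the median-ratio scaling 55 were higher and 30 lower, and the shares were 64.7% and 55.4%. The counts of each list are to be read against these shares of all detected genes. Only 3 genes were at least 2-fold higher, Egr1, Arrb1 and Adcy6, which is 3.53% of the 85 against 4.95% of all detected genes. Cebpd was the only detected gene 2-fold lower, 1.18% against 2.14%. Pla2g2e, a phospholipase A2 gene, was undetected at a mean of 0.84 TPM. It had 1.68 TPM alone and 0 with macrophages (log2 ratio -1.42).

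Among genes of arachidonate release, synthesis and re-esterification the ratios were mostly above 0. Of 19 other genes of phospholipases, lipases and related proteins 8 were detected. Of these 7 were higher and 1 lower, with a median of 0.40 (6 and 2 with the median-ratio scaling). Pla2g6, the calcium-independent phospholipase A2, had 7.26 TPM alone and 12.1 TPM with macrophages. The log2 ratios of Pla2g5, Pla2g15, Daglb and Faah were 0.68, 0.53, 0.47 and 0.34. Pla2g12a, a secreted form and the most abundant of the list, had 58.5 and 48.6 TPM. Of 12 genes of arachidonate synthesis and of fatty acid activation and re-esterification 10 were detected. Of these 9 were higher and 1 lower, with a median of 0.41 (7 higher and 3 lower with the median-ratio scaling). Acsl4, the acyl-CoA synthetase that prefers arachidonate, had 15.0 TPM alone and 28.7 TPM with macrophages (log2 ratio 0.89). Mboat1 had 4.71 and 9.10 TPM, and Acsl5 had 49.2 and 68.0 TPM. Fads2, Lpcat3 and Acsl3 had log2 ratios of 0.65, 0.55 and 0.37. None of the detected genes in these 2 lists was 2-fold different.

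The other terminal synthases and the transport and breakdown genes were also within 2-fold. Hpgds and Tbxas1, the genes of haematopoietic prostaglandin D synthase and thromboxane synthase, were listed at 0 in both libraries. Ptgds, the other prostaglandin D synthase, had 2.28 TPM alone and 1.36 TPM with macrophages. Akr1b3, an aldose reductase with prostaglandin F synthase activity, had 137 and 117 TPM, and Cbr1, a carbonyl reductase that can convert PGE2, had 23.4 and 35.9 TPM. Akr1b8 had a log2 ratio of 0.14. Of 8 matched transport and later breakdown genes 6 were detected, all higher (5 with the median-ratio scaling). Slco2a1, the prostaglandin uptake carrier, had 50.6 TPM alone and 58.5 TPM with macrophages. Abcc4, an exporter of prostaglandins, had 6.36 and 10.4 TPM. The reductase genes Ptgr1 and Ptgr2, which act after Hpgd, had 6.82 and 8.89 TPM and 17.2 and 17.7 TPM. Zadh2 and Slco4a1 had log2 ratios of 0.52 and 0.40.

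Downstream of the receptors 18 of 20 signalling genes were detected, 15 higher and 3 lower, with a median of 0.46 (14 and 4 with the median-ratio scaling). Arrb1, which encodes a beta-arrestin that desensitises receptors, had 4.55 TPM alone and 13.1 TPM with macrophages (log2 ratio 1.34), whereas its relative Arrb2 had 28.1 and 22.6 TPM. Adcy6, an adenylyl cyclase, had 3.30 and 8.01 TPM, a log2 ratio of 1.07 that was under 2-fold with the median-ratio scaling. The log2 ratios of Pde4a, a phosphodiesterase that degrades cAMP, and Prkar2a, a regulatory subunit of protein kinase A, were 0.95 and 0.83. Those of Creb1 and Prkacb were 0.75 and 0.62. Gnas, the gene of the stimulatory G protein, had 874 and 872 TPM. Of 11 genes that respond to cAMP and CREB 7 were detected and none was 2-fold different. The largest ratio there was that of Nr4a1, with 5.14 TPM alone and 10.4 TPM with macrophages, and Areg, the most abundant, had 47.8 and 52.3 TPM. The log2 ratios of Crem, Sik1 and Dusp1 were 0.59, 0.12 and 0.11, and that of Fos was -0.47.

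Genes known to act on or beside Ptgs2 differed in both directions. Of 12 detected genes 7 were higher and 5 lower, with a median of 0.17 (6 and 6 with the median-ratio scaling). Cebpd, a C/EBP transcription factor, had 9.23 TPM alone and 2.99 TPM with macrophages (log2 ratio -1.36). Its relative Cebpb had 235 and 131 TPM (log2 ratio -0.84). Both detected C/EBP genes of the list were lower in co-culture, as Ptgs2 was, and a link between them was not tested. Egr1, an immediate-early transcription factor, had 1.25 and 5.34 TPM (log2 ratio 1.49). Jun had 28.8 and 54.7 TPM, and Zfp36, whose protein destabilises Ptgs2 messenger RNA, had 4.37 and 8.76 TPM. Nos2, the inducible nitric oxide synthase often made beside Ptgs2, had 4.52 and 9.92 TPM, opposite in direction to Ptgs2. Fosl1 had 195 TPM in both libraries. The inducing cytokine genes Tnf and Il1b were listed at 0 in the control, and in co-culture Tnf was at 0 and Il1b at 0.04 TPM. Il1a and Il6 were also undetected, at 0.29 and 0.72 TPM and at 0.30 and 0.59 TPM.

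**Figure D4:**
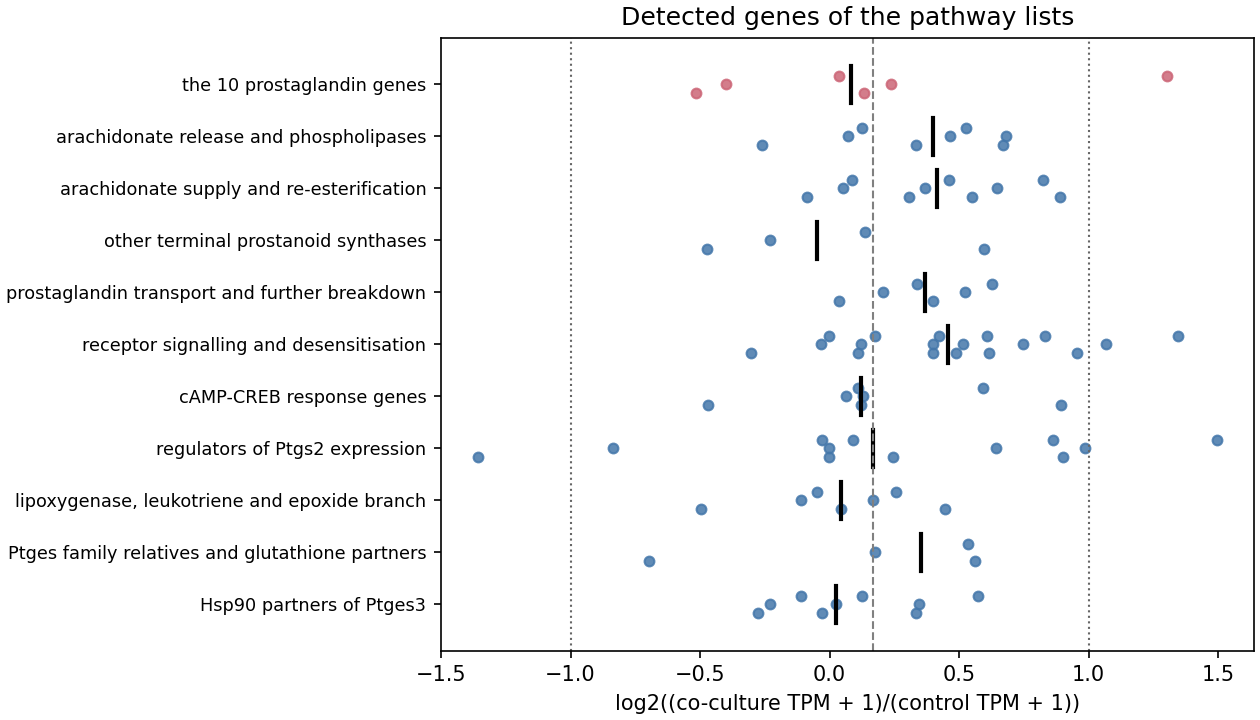
Log2 ratio of co-culture to control TPM (x axis, 1 TPM added) of each detected gene, 1 point per gene, for the prostaglandin genes (red) and 10 pathway lists with detected genes (blue). Black bars are list medians, the dashed line is the median of all detected genes (0.17), and dotted lines mark 2-fold. Ptges at 1.30 stands apart from the other red points, and Egr1, Arrb1, Adcy6 and Cebpd are the blue points beyond the dotted lines.

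The remaining lists had no detected gene 2-fold different. Among lipoxygenase, leukotriene and epoxide genes, the other fates of arachidonate, 7 of 14 were detected, with a median of 0.04. Alox5, Alox12 and Alox15 were listed at 0 in both libraries. Lta4h, which encodes leukotriene A4 hydrolase, had 56.8 TPM alone and 63.9 TPM with macrophages. Mgst2, the most abundant of the list, had 84.4 and 78.0 TPM. The log2 ratios of Ltc4s, Cyp4f16, Mgst3 and Cyp2j6 were -0.50, 0.45, 0.25 and -0.05. Mgst1, a microsomal glutathione transferase of the same family as Ptges, had 23.2 and 34.0 TPM, a log2 ratio of 0.53. Gsto1 was lower, with 146 and 90.0 TPM. Gstm1 had a log2 ratio of 0.56, and the abundant Gstp1 had 697 and 787 TPM. The 9 genes of Hsp90 and its partners, listed beside Ptges3, had a median of 0.02, 5 higher and 4 lower (4 and 5 with the median-ratio scaling). Hsp90ab1, the most abundant of them, had 2142 TPM alone and 1984 TPM with macrophages. The log2 ratios of Nr3c1, Fkbp5, Hsp90aa1 and Ahsa1 were 0.57, 0.35, 0.33 and 0.12, and those of Hsf1 and Fkbp4 were -0.28 and -0.23.

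The cells were sampled in bulk, so a lower level in every cell and a smaller share of cells with the transcript cannot be told apart. Of the 20 macrophage markers Cd68 and Cd14 were detected, as given above, and the part of macrophage RNA in these values was not tested. Of 11 fibroblast and endothelial markers 1 was detected, Pdgfra, with 5.60 TPM alone and 10.2 TPM with macrophages, and its part in the results was not tested.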

How the data were processed

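RNA sequencing of 4T1 cells was used, with 1 library per group and 2 libraries in all, grouped by the treatment label. The authors deposited a table of TPM values, rounded to 2 decimals, with 52796 rows, of which 884 are assembled loci without Ensembl identifiers and were not used. Per the submitters' processing notes, the tools were HISAT2 2.1.0 and RSEM 1.2.31 on build GRCm38.p5, with no roles stated. For strandedness, annotation release and filters nothing is stated. How reads shared by paralogs, pseudogenes or overlapping genes were divided is not stated, so such values are uncertain. The depth is unknown.

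Symbols matched 51633 Ensembl identifiers, and positions are GENCODE M21 (GRCm38). Log2 ratios, counts past 2-fold and percentiles were computed with Python 3.11.15, pandas 2.3.3 and numpy 2.4.6. The computation was run on simulated data with changes much larger than 2-fold and with every gene well above the detection level. That run does not bear on smaller changes or on genes at low levels. Of the other pathway lists, detected genes were named by absolute log2 ratio and abundance, up to 6 per list plus the most abundant, and Arrb2 was added after its values were seen. Undetected genes of known role were named as well and chosen after their values were seen. The members and lists were chosen with earlier results of these data known. Alternatives were pseudocounts of 0.1 and 5, no filter, a mean of at least 10 TPM, log2 thresholds of 0.58 and 2, and 3 scalings: the median ratio of genes with at least 10 TPM, an unweighted TMM factor, and rescaling without mitochondrial genes and the 20 most abundant rows. A count over protein-coding genes only was added after the data were seen.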

Additional observations from a re-analysis of the deposited data

How the results depend on the processing

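Ptges stayed at least 2-fold higher with both other pseudocounts and all 3 other scalings, with log2 ratios from 1.16 to 1.34, and Ptgs2 (-0.62 to -0.42) and Pla2g4a (-0.51 to -0.33) stayed lower. Ptges2 was negative with 2 of the 5. The median log2 ratio of the members was -0.03 with the median ratio (-0.028) and the TMM factor (-0.027), whose shifts were 0.12 and 0.11, because the factor was subtracted from ratios near 0. The median of all genes was then 0.0594 and 0.0603, and 0 without a filter. With a log2 threshold of 2 there were 0 members higher, beside 0.67% of all detected genes. Over all genes the counts higher and lower were 2124 and 722 at a log2 threshold of 0.58, 75 and 66 at 2, 199 and 129 with a pseudocount of 5, and 244 and 120 at a mean of at least 10 TPM. A pseudocount of 0.1 gave 886 higher, and protein-coding genes alone gave 156 lower. With the median ratio 406 were higher and 293 lower. Of the 85 detected genes of the pathway lists 6 were higher with a pseudocount of 0.1, beside 7.87% of all detected genes. At a log2 threshold of 0.58, 21 were higher and 3 lower, beside 18.9% and 6.41%. With a pseudocount of 5, 0 were higher and 0 lower, beside 1.77% and 1.15%. The list counts were also 0 and 0 at a log2 threshold of 2, beside 0.67% and 0.59%. At a mean of at least 10 TPM they were again 0 and 0, beside 3.58% and 1.76% of the genes at that level. Without a filter 2 of the 129 list genes were lower, Cebpd and Pla2g2e, beside 0.55% of 51912 genes. With 1 library per group no replicate could be left out. No interval can be given, since TPM carries no depth.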

Other observations

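The transcripts named for these genes that are given here were chosen after their values were seen. They were all higher in co-culture, as were 64.5% of all detected genes (55.4% with the median-ratio scaling). Ptgs2os2, a long noncoding RNA on the minus strand of chromosome 1 from 150159043 to 150164948, beyond the 3′ end of Ptgs2, had 2.13 TPM alone and 4.04 TPM with macrophages (log2 ratio 0.69), the opposite direction to Ptgs2. Ptgs2os, on the minus strand upstream of Ptgs2, was undetected, at 0.23 and 0.49 TPM. Ptges3l, a protein-coding relative of Ptges3 on chromosome 11, had 2.12 and 5.01 TPM (log2 ratio 0.95).

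The protein-coding genes within 50 kb of Ptges had smaller log2 ratios than Ptges. Tor1b, which encodes a torsin of the ER and nuclear envelope, had 19.4 TPM alone and 29.0 TPM with macrophages (log2 ratio 0.56). Prrx2, a homeobox gene, had 7.29 and 10.2 TPM (0.43). Tor1a had 43.4 and 48.0 TPM (0.14), and BC005624 had 29.9 and 29.1 TPM (-0.04). Within 50 kb of Ptges2, Lcn2 had the largest log2 ratio, 0.75, while Ptges2 itself was at 0.04.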
